A study of Mus musculus with 9 samples.

Results

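The RNA of 4 clones of induced pluripotent-like stem (iPS) cells was set against that of the mouse embryonic fibroblasts (MEF) they were made from. The members are the 4 arrays whose titles call the cells iPS and the 1 array of Fbx15-null MEF, which together are 5 of the 9 arrays in the series. Total RNA of each sample was labelled with Cy3 and hybridised once to an Agilent array with 20868 gene probes. The MEF came from Fbx15-null embryos of stage E13.5, and the labels say that iPS induction started from them, while they name the source of the clones Fbx15 bgeo-KI MEF, that is, with the bgeo cassette knocked in at Fbx15. These fibroblasts had received retroviral vectors for 4 factors (1 clone), 10 factors (1 clone) or 3 factors (2 clones), had been kept in ES cell culture conditions and had been selected with G418 for 16 days. The factors are not named in the labels, and each clone is a single picked line on a single array. Further arrays serve as reference values. The first held Fbx15 bgeo-KI MEF that carried the 4 factors but were never given G418 and yielded no iPS clones, here called unselected MEF. The second held Fbx15-null embryonic stem (ES) cells grown on STO cells, a fibroblast line used as a feeder layer. Every one of these groups carries an altered Fbx15 gene, so none stands for wild-type cells.

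Reprogramming turns a differentiated cell into one that resembles the pluripotent cells of the early embryo. Fibroblasts are mesenchymal cells that lie singly in a collagen-rich matrix they secrete themselves and pull on it with actin bundles, whereas ES cells grow as packed epithelial colonies held together by E-cadherin and divide with a short G1 phase. A fibroblast that enters the pluripotent state therefore has to give up matrix and contractile genes, gain cell-to-cell junctions and switch on the network of transcription factors around Oct4, Sox2 and Nanog.

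Signals are given as log2 of the processed signal relative to the 75th percentile of the same array, so that 0 is the brightness of that percentile and a step of 1 is a doubling. Dim values were set to a floor at -4.78 on this scale, and values at the floor have no order. Values of the clones are given in the order 4-factor, 10-factor, first 3-factor and second 3-factor clone. Across arrays 52.4% to 59.6% of probes were well above background, and the 10-factor clone had the highest share. MEF and the 4- and 10-factor clones were scanned on the same day as ES, both 3-factor clones on another day and the unselected MEF on yet another, so that the number of factors (3 against more) and the scan day cannot be told apart. The arrays of the 3-factor clones were nearly alike. Over 10611 probes the robust SD of their log2 difference was 0.25 and 16 probes lay at least 5-fold apart, against 0.45 to 0.57 and 341 to 505 probes in every other pairing. The 3-factor arrays differed in Xist and Rhox5 and were kept as 2 samples, but results are also given with this pair averaged into 1 sample. The labels do not say whether cultures were separate, and each p-value therefore reflects only how far these few arrays spread, which also limits the precision.

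The labels were checked against marker genes. All 8 fibroblast markers were well above background in MEF, where their summed signal was 46400% of the 75th percentile, against 724% to 1810% in the clones. Of 8 ES-cell markers, 7 were well above background in the 4-factor clone, the 10-factor clone and ES, but 3 in each 3-factor clone and 1 in MEF, where Dppa5a was dimly detected. The summed signal of these markers was 1190%, 5380%, 440% and 419% in the clones, 14.3% in MEF and 45400% in ES. All clones thus lay between MEF and ES on this sum, and the 3-factor clones were the lowest of the clones. The sum follows its brightest members, which were Dppa5a and Zfp42 in ES and Dppa5a in the 10-factor clone. Single markers did not all keep this order, with Fbxo15 in the first 3-factor clone and Sox2 in the 4-factor clone above ES.

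In the clones 617 probes were higher than in MEF (4.73% of 13051 tested) and 1217 were lower (9.32%), by limma with a Benjamini-Hochberg adjusted p under 0.05. Only the 4 clones give an estimate of the spread, and the test takes the single MEF array to share it. All 4 clones lay on the called side of MEF for 615 of the 617 and for 1216 of the 1217 probes. The median difference over all tested probes was 0.04 on the log2 scale, against 1.4 over the higher and -1.47 over the lower probes. Among the lower probes 409 lay at the floor in every clone, which leaves no spread and makes the adjusted p small, and 80 of the higher probes were not above background in MEF. In a bulk sample fewer cells of a type and less RNA per cell cannot be told apart.

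These counts hang on the near-identical 3-factor pair. With the pair averaged, 51 probes were higher (0.391%) and 297 lower (2.28%). Without the first 3-factor clone the counts were 60 and 289, and without the second they were 33 and 285, whereas they were 443 and 930 without the 4-factor clone and 570 and 1326 without the 10-factor clone. Scaling to the median of each array in place of the 75th percentile gave 271 higher and 978 lower. Within the first scan day, with the 4- and 10-factor clones against MEF, limma called 0 probes, with 2990 at an unadjusted p under 0.05. The count of probes at least 2-fold above MEF in all 4 clones, which uses no estimate of the spread, was 779 (5.97%), and 1227 (9.4%) were at least 2-fold below.

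**Figure D1:**
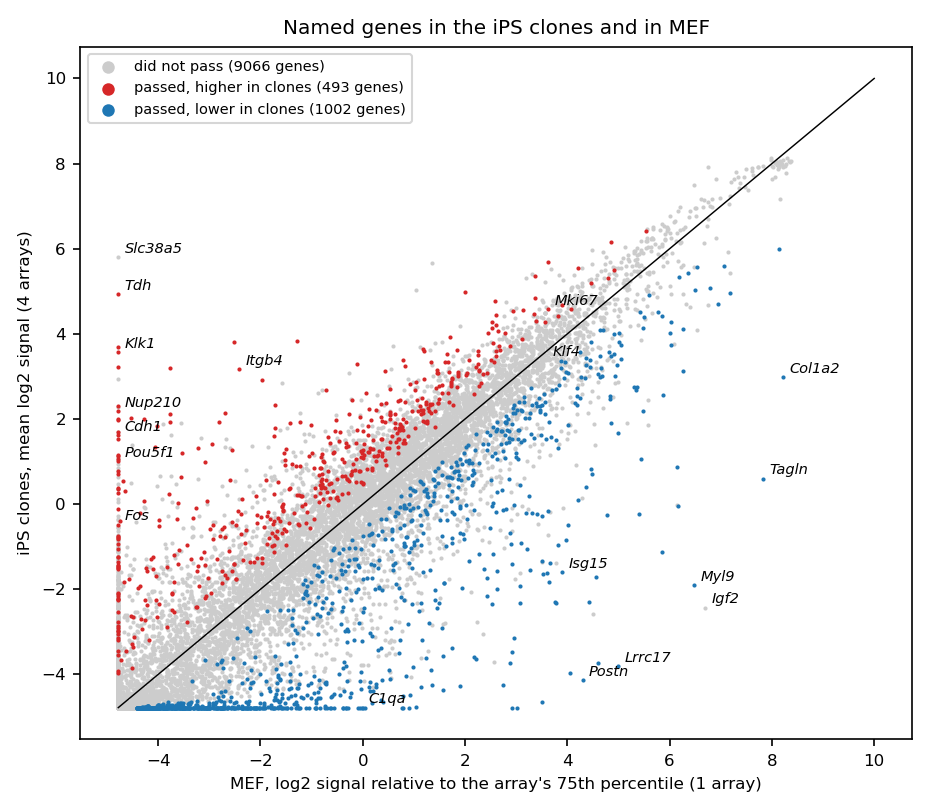
Named genes plotted by their log2 signal in MEF (horizontal axis, 1 array) and their mean log2 signal in the 4 iPS clones (vertical axis), relative to the 75th percentile of each array; red and blue points passed limma at an adjusted p under 0.05, and the line marks equal signal. Points that passed lie on both sides of the line, with 493 genes higher and 1002 genes lower in the clones, and a row of points at the left and lower edges are genes at the floor.

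Taken singly, the clones moved away from MEF to different degrees. At least 5-fold above MEF were 499 probes in the 4-factor clone (3.9% of those above background on either array), 539 (4.09%) in that with 10 factors, and for the 3-factor pair 463 (3.59%) and 464 (3.6%). At least 5-fold below MEF were 665 (5.19%), 464 (3.52%), 664 (5.15%) and 688 (5.34%). The 10-factor clone thus had the fewest losses and, at this fold, the most gains. At a fold of 2 the gains were 1850, 1864, 1989 and 2197 and the losses 2128, 1793, 2390 and 2313. All 4 clones shared 164 gains (1.35% of 12184 probes) and 348 losses (2.86%). Gains seen in 1 clone alone numbered 186 for the 4-factor and 165 for the 10-factor clone but 44 and 35 for the 3-factor pair. Losses seen in 1 clone alone numbered 118, 11, 24 and 38. These counts come from single arrays and have no test.

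Genes of the pluripotency network were unevenly higher in the clones. Fbxo15, the gene that carries the cassette and so the target of the drug selection, read -0.55, -0.46, 1.35 and 1.05 in the clones and 1.24 in ES, and it was not above background in MEF or in unselected MEF. All clones were thus bright and both fibroblast samples dark. The clones were at least 35.1-fold higher, yet the gene did not pass (limma adjusted p = 0.052). Whether the probe lies in the replaced stretch of the gene is not stated in the labels. Fbxo15 is among the ES-cell markers summed above, so that check of the labels rests in part on the selected gene itself. Pou5f1 encodes Oct4, the factor on which the pluripotent state depends. It read 1.11, 1.14, 0.8 and 0.98 in the clones, 1.87 in ES and -3.06 in unselected MEF, and it was not above background in MEF. The clones did not overlap with MEF, differed little among themselves and all lay below ES. Pou5f1 rose at least 55.3-fold (limma adjusted p = 0.000945) and kept its call with the pair averaged (adjusted p = 0.0238). The labels do not name the factors, and whether the Pou5f1 probe also reads vector transcripts was not tested.

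Among the other pluripotency factors Nr0b1 (Dax1, an orphan nuclear receptor that binds Oct4) read -0.04, -0.01, 1.42 and 1.71, was dark in MEF and rose at least 47-fold (limma adjusted p = 0.0388). In all 3 of 20 tested pluripotency factors rose (4.73% of all probes rose). The other 17 did not pass and none fell, and the median difference of the list was 1.05. However, 10 of the 20 were not above background in MEF and so entered the test only through the clones. With the pair averaged only Pou5f1 passed, and without the 10-factor clone the median of the list was -0.08. With the normexp background correction the median was 0.28, and with probes at the floor left out it was 0.12 over 11 genes. Of 24 ES-cell associated genes with a probe 15 were tested, and 10 of these were not above background in MEF and so entered the test only through the clones. Of the 15, 3 rose and with the pair averaged none did. Their median of 2.76 was 1.14 with the normexp background and 0.54 over the 6 genes left without probes at the floor. Tdh, the threonine dehydrogenase on whose product ES cells depend, read 5.97, 3.77, 4.93 and 5.07, while unselected MEF stood at -4.68. The 4-factor clone was close to the 5.81 of ES and the other clones lay below it, the 10-factor clone furthest. Pipox, a peroxisomal oxidase of sarcosine and pipecolic acid, read 3.43, 2.03, 1.4 and 1.15 and was already at 0.49 in unselected MEF. Alpl, the alkaline phosphatase used to stain ES colonies, read -1.81, -0.81, -1.96 and -1.52, was dark in MEF and rose at least 9.59-fold (limma adjusted p = 0.0355), but all clones stayed below the 2.04 of ES.

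A second group of network genes was above background in the 4- and 10-factor clones but not in the 3-factor clones. Over both lists 35 genes were tested, and 20 of them were not above background in MEF. Of these 20, 11 were well above background in all 4 clones, 8 in the 4- and 10-factor clones but in neither 3-factor clone, and 0 in the 3-factor clones alone. Over all named genes 1022 were not above background in MEF, of which 382 were above it in all 4 clones, 144 in the 4- and 10-factor clones only and 174 in the 3-factor clones only. The 8 genes, named here after their values were seen, are Nanog, Sox2, Esrrb, Nr5a2, Zfp42, Foxd3, Dppa3 and Ooep. Some were dim. Dppa3 read 0.47 in the 10-factor clone but at most -4.36, near the floor, in the other clones. Foxd3 differed from MEF by 0.55 on average, and by -0.09 with the normexp background. Nanog, a homeodomain factor of the pluripotent core, read -2.48 with 4 factors and -0.78 with 10, against 2.59 in ES. Zfp42 (Rex1), a classic marker of undifferentiated ES cells, read -3.06 and -0.84 in these clones and 7.03 in ES. Sox2, the partner of Oct4, was the exception in size, at 0.56 in the 4-factor clone against 0.18 in ES, and -1.86 in both the 10-factor clone and unselected MEF. Whether these probes also read vector transcripts was not tested. None of the 8 passed (limma adjusted p = 0.618 for Nanog, 0.638 for Zfp42 and 0.621 for Sox2). Klf4 and Myc, which fibroblasts also express, gave the third pattern. Klf4 read 3.38, 3.92, 3.18 and 3.08 against 3.59 in MEF, where clones lay on both sides. Myc read 0.06, 0.1, -0.99 and -0.93, all below the 2.04 of MEF, and did not pass (limma adjusted p = 0.0781).

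**Figure D2:**
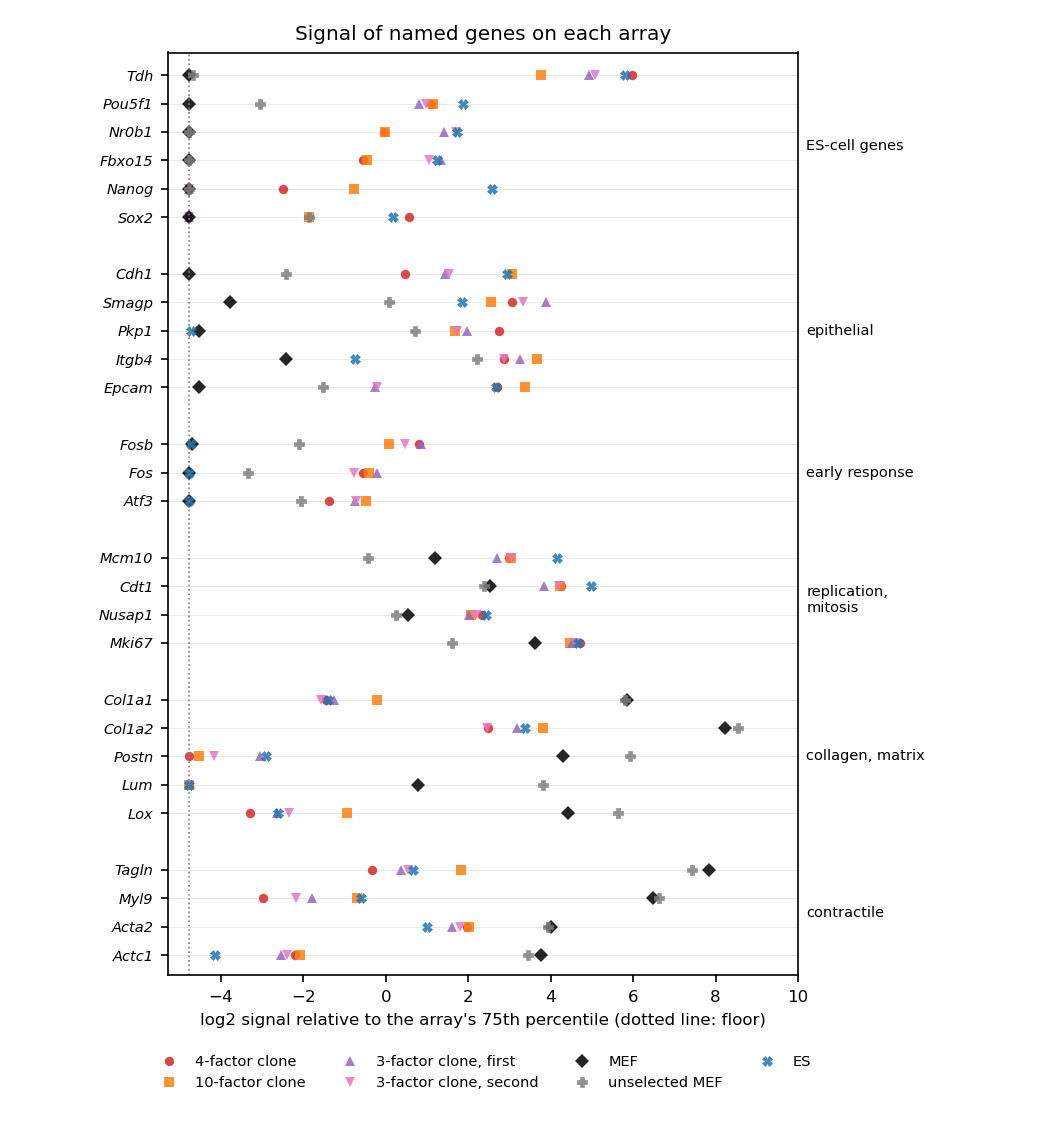
Log2 signal of named genes on each array relative to the 75th percentile (horizontal axis), with 1 symbol for each clone, MEF, unselected MEF and ES; the dotted line is the floor. Clones lie to the right of MEF for the ES-cell, epithelial, early-response and replication genes shown, except for Nanog and Sox2, which are at the floor in MEF and both 3-factor clones, and to the left for the collagen, matrix and contractile genes.

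Some genes of epithelial cells rose in the clones. Cdh1 encodes E-cadherin, the adhesion molecule of epithelia and of ES-cell colonies. It read 0.48, 3.06, 1.44 and 1.53 in the clones, -2.41 in unselected MEF and 2.93 in ES, and it was dark in MEF. Only the 10-factor clone reached ES, and no clone overlapped with MEF. Cdh1 rose at least 85-fold (limma adjusted p = 0.0388, and 0.116 with the pair averaged). Lsr, a receptor of tricellular tight junctions, rose by 4.04 ± 0.66 (log2, SE, limma adjusted p = 0.0382), and Smagp, a small transmembrane adhesion glycoprotein, by 6.98 ± 0.56 (limma adjusted p = 0.00967). These made 3 of 18 tested genes of epithelial adhesion and tight junctions (4.73% of all probes rose), and 15 did not pass. The median of the list was 2.47, and all clones lay above MEF for 15 of the 18 (32.1% of named genes). However, 9 of the 18 were not above background in MEF and so entered the test only through the clones, against 1022 of 10561 named genes. The 10-factor clone was the highest clone for 11 of the 18, against 2877 of 10561 named genes. Epcam, another epithelial adhesion molecule of ES cells, read 2.71 and 3.38 in the 4- and 10-factor clones, as in ES (2.68), but -0.27 and -0.21 in the 3-factor clones, and did not pass (limma adjusted p = 0.127).

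A few desmosome and basement-membrane genes rose as well. Pkp1, a plakophilin that anchors keratin filaments in desmosomes, read 2.76, 1.68, 1.97 and 1.73 in the clones, -4.53 in MEF, 0.7 in unselected MEF and -4.72 in ES. All clones were bright while MEF and ES were dim, and the gene rose by 6.57 ± 0.5 over MEF (limma adjusted p = 0.00872, and 0.0568 with the pair averaged). It was the only one of 14 tested keratin and desmosome genes to pass (4.73% of all probes rose). Itgb4, the integrin subunit of hemidesmosomes, read 2.88, 3.67, 3.26 and 2.87, against -2.41 in MEF, 2.22 in unselected MEF and -0.75 in ES. It rose by 5.58 ± 0.38 (limma adjusted p = 0.00678) and kept its call with the pair averaged (adjusted p = 0.0466). Lama5, a laminin chain of epithelial basement membranes, read 2.31, 2.37, 1.88 and 1.63 against -0.05 in MEF and rose by 2.1 ± 0.36 (limma adjusted p = 0.041). Among keratinocyte markers none of 3 tested passed. Krt14, the keratin of basal epidermal cells, read -0.22, 2.42, -2.18 and -0.38 in the clones, -4.26 in MEF and 0.49 in unselected MEF. The summed signal of 4 keratinocyte markers was 76.5% to 612% of the 75th percentile in the clones, 47.5% in MEF and 192% in unselected MEF, and their part in the result was not tested.

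Large gains were also seen in genes with a range of functions. Nup210, a nuclear pore membrane protein, read 1.78, 1.93, 2.48 and 2.59 in the clones, -2.27 in unselected MEF and 2.33 in ES, so that clones and ES were alike and apart from the fibroblasts. Its call held with the pair averaged (limma adjusted p = 0.0355). Aqp3, a water and glycerol channel of epithelia, read 1.65, 1.11, 1.44 and 1.95 and rose at least 79.8-fold (limma adjusted p = 0.00418, and 0.0322 with the pair averaged). It was dark in MEF, at -3.24 in unselected MEF and at -0.79 in ES, so all clones exceeded ES. Fgfbp1, a secreted carrier of fibroblast growth factors, read 0.63, 3.22, 1.53 and 1.41 against -3.75 in ES. Cyp2s1, an epithelial cytochrome P450, read 2.47, 3.2, 0.92 and 1.37 against 0.04 in ES and -4.28 in MEF. Urah, an enzyme of uric acid breakdown, read 4.61, 3.96, 3.58 and 3.08, and rose by 6.33 ± 0.64 over MEF (limma adjusted p = 0.0159). Plet1, a surface protein of trophectoderm and epithelial progenitors, read -0.24, 1.33, 0.14 and 0.21, rose at least 35.4-fold (limma adjusted p = 0.0257) and was at -0.79 in unselected MEF and -0.23 in ES. For Fgfbp1, Cyp2s1, Urah and Plet1 the call ended with the pair averaged.

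Several tissue kallikreins, closely related serine protease genes of a cluster named after Klk1, rose in the clones. Klk1 itself read 2.78, 3.38, 4.82 and 3.32 in the clones, -0.63 in unselected MEF and -1.17 in ES, and it was dark in MEF. Klk1b5 read 2.69, 3.16, 5.24 and 3.62, and Klk1b24, which did not pass, read -0.86, -2.02, 0.56 and -0.16. The group has 15 members, of which 14 have a probe. All 12 that were tested were dark in MEF and so entered the test only through the clones, and the 2 others were above background in no clone. Of the 12, 7 rose (5 with the normexp background) and 5 did not pass. All 12 were highest in the first 3-factor clone, against 1781 of 10561 named genes. With the pair averaged none passed (Klk1, limma adjusted p = 0.0503). The genes are similar in sequence, and whether their probes read each other's transcripts was not tested. ES was at -1.33 for Klk1b5 and at -3.72 for Klk1b24, below every clone.

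Some genes of DNA replication rose, by smaller steps. Mcm10, which helps to start the helicase, read 2.98, 3.04, 2.71 and 3.04 against 1.2 in MEF and -0.42 in unselected MEF. Cdt1, which loads that helicase onto origins, read 4.24, 4.23, 3.85 and 4.2 against 2.53 in MEF. Orc1, a subunit of the origin recognition complex, read 0.51, 0.86, 0.64 and 0.85 against -0.79. For each of these genes the clones lay together, above both fibroblast samples and below ES. Mcm10 rose by 1.74 ± 0.17 (limma adjusted p = 0.0148), Cdt1 by 1.6 ± 0.2 (0.024) and Orc1 by 1.5 ± 0.18 (0.023). In all 9 of 34 replication genes rose (4.73% of all probes), 25 did not pass and none fell, with a median of 1.08. All clones lay above MEF for 32 of the 34, against 32.1% of named genes. With the pair averaged Mcm10 alone kept its call (adjusted p = 0.0453).

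Promoters were searched for the sites of E2F, the transcription factor family that switches on replication genes when cells enter S phase. The letters TTTCCCGC or TTTGGCGC, on either strand, occurred within 300 bases (250 before to 50 after the start) in 11 of 27 replication genes with a promoter in the table (40.7%), in 3 of the 6 among them that rose, and in 279 of 8395 tested genes with a promoter (3.32%). A match is a description and not a proven site. The promoters of 2 genes that rose are shown as examples, with the 1 match of each in capitals, 5′ to 3′ on the strand of the gene, from RefSeq on GRCm38.p6.
Cdt1 (chr8:122567765-122568064, plus strand): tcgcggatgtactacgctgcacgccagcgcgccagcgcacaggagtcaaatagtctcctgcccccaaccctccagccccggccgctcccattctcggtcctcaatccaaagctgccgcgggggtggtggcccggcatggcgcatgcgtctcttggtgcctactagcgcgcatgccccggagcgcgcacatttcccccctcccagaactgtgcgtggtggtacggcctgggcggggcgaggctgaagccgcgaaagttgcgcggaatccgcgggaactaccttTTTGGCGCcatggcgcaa
Mcm7 (chr5:138171834-138172133, minus strand): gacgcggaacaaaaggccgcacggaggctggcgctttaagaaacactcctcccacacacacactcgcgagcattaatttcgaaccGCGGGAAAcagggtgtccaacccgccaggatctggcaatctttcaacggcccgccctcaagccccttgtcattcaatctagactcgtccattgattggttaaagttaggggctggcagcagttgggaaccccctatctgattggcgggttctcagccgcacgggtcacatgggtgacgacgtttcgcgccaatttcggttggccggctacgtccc
Mcm7, a subunit of the replicative helicase, read 5.16, 4.82, 4.52 and 4.85 in the clones, 3.37 in MEF and 2.28 in unselected MEF. All clones lay above both fibroblast samples, and the gene rose by 1.47 ± 0.27 (limma adjusted p = 0.0462, and 0.101 with the pair averaged).

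Mitosis genes gave smaller differences. Nusap1, a spindle protein, read 2.34, 2.07, 2.03 and 2.2 against 0.53 in MEF and rose by 1.63 ± 0.16 (limma adjusted p = 0.0143). Bub1b, a kinase of the spindle checkpoint, read 0.61, 0.66, 0.41 and 0.7 against -0.79, rose by 1.38 ± 0.14 (limma adjusted p = 0.0168) and kept its call with the pair averaged (0.0487). Ccnb1, cyclin B1, and Mki67, the Ki-67 antigen of cycling cells, also rose. This makes 4 of 24 (4.73% of all probes rose), with a median of 0.81. The other 20 did not pass. Against unselected MEF, which shares the clones with this comparison and is not independent of it, 27 replication and 20 mitosis genes rose (12.2% of 12948 probes rose there), and Mki67 stood at 1.6 there against 3.62 in MEF. Not one of 30 G1 regulators and p53 targets passed, and their median was 0.00. Cdkn2a, the locus of p16 and p19Arf, read -0.47, 0.06, 0.36 and 0.35 against -0.3 in MEF, with clones on both sides, and -3.04 in ES. Perp, a p53 target of desmosomes, read 4.11, 4.64, 5.74 and 5.68 against 1.04 but missed the threshold (limma adjusted p = 0.055). Chromatin genes rose in 3 of 30 cases (4.73% of all probes rose), with a median of 0.73. With the pair averaged none rose (0.391% of all probes did). Uhrf1, which keeps DNA methylation through replication, rose by 1.52 ± 0.25 (limma adjusted p = 0.0388), Ezh2, the methyltransferase of the Polycomb complex, by 1.4 ± 0.25 (0.0462), and Smarcad1, a chromatin remodeller, by 0.8 ± 0.08 (0.0169).

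Metabolic lists moved little as a whole, with a few genes standing out. For the counts below, 4.73% of all probes rose and 9.32% fell. Mthfd1, a central enzyme of folate metabolism, read 3.6, 3.51, 3.6 and 3.67 in the clones against 1.2 in MEF, 1.15 in unselected MEF and 3.2 in ES. The clones were within 0.15 of each other, and the gene rose by 2.39 ± 0.09 (limma adjusted p = 0.00173, and 0.0288 with the pair averaged). With Tdh it made 2 of 19 genes of threonine, glycine, serine and folate metabolism, where Aldh1l1, a folate dehydrogenase, fell by 2 (limma adjusted p = 0.00921) and the median was 0.14. Slc38a5, an amino acid transporter, read 3.71 and 4.14 in the 4- and 10-factor clones but 7.69 and 7.7 in the 3-factor clones. It was dark in MEF and in unselected MEF and at -2.71 in ES, so the clones lay above all of these. The clones were at least 1550-fold higher than MEF, but the gap between them left the gene short of the threshold (limma adjusted p = 0.0576). Among 19 transporters 1 rose and 3 fell. Glycolysis enzymes gave 2 of 19 higher with a median of 0.38, namely Pfkp, a phosphofructokinase (1.08 ± 0.09, limma adjusted p = 0.0112), and Aldoc, an aldolase (3.83 ± 0.36, limma adjusted p = 0.014). Aldoc read 1.46, 0.86, 1.66 and 1.09 against -2.56 in MEF but 3.21 in unselected MEF, so the fibroblast samples lie on opposite sides of the clones. The glycolysis list as a whole also changed direction against unselected MEF. There 0 of 19 rose and 7 fell, with a median of -0.47 (15.2% of 12948 probes fell there). Of 26 genes of ribosome biogenesis and Myc targets 2 rose, Polr1b, a subunit of RNA polymerase I (1.77 ± 0.22, limma adjusted p = 0.0234), and Ddx18 (0.9 ± 0.15, limma adjusted p = 0.0409). The list had a median of 0.89, and 24 of its 26 genes were highest in the second 3-factor clone, against 2794 of 10561 named genes.

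Immediate early genes, which are transcribed within minutes of a growth or stress signal, gave 5 of 17 higher and 1 lower (4.73% and 9.32% of all probes). Fos read -0.54, -0.4, -0.2 and -0.76, Fosb 0.8, 0.07, 0.86 and 0.48, and Atf3 -1.37, -0.47, -0.74 and -0.72. These AP-1 and related factors were not above background in MEF and so entered the test only through the clones. They were at or near the floor in ES, and were lower in unselected MEF (-3.35, -2.11 and -2.06) than in any clone. Fos rose at least 19.8-fold (limma adjusted p = 0.00411), Fosb at least 37.8-fold (0.00702) and Atf3 at least 15.5-fold (0.0147), and Fos and Fosb kept their calls with the pair averaged (0.0238 and 0.0481). With Dusp1, a phosphatase that turns off MAP kinases (2.51 ± 0.43, limma adjusted p = 0.0414), and Ier2 (1.84 ± 0.19, 0.0165), they make up the 5, with a list median of 0.93. Against unselected MEF the list median was 0.05, with 2 of 17 higher and 1 lower (12.2% of 12948 probes rose there). Fosl2, near the floor everywhere, was called lower by 0.4. Nr4a1, an orphan nuclear receptor, read 5.04, 4.53, 6.8 and 6.29 against 1.36 in MEF and 6.27 in unselected MEF, and did not pass. Cxcl1, a neutrophil chemokine, read 1.47, 2.39, 1.99 and 1.8 in the clones, -1.42 in MEF, -2.14 in unselected MEF and -3.79 in ES. It rose by 3.33 ± 0.39 (limma adjusted p = 0.0206, and 0.085 with the pair averaged).

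Genes of the fibroblast matrix fell. Col1a1 and Col1a2, the chains of type I collagen, read -1.46, -0.21, -1.26 and -1.57 and 2.47, 3.81, 3.19 and 2.46 in the clones, against 5.86 and 8.22 in MEF. Col5a1, a chain of the type V collagen that nucleates fibrils, read -0.41, 0.1, 0.17 and -0.76 against 5.4. Unselected MEF stood near MEF for all of these (5.81, 8.55 and 4.98), the clones stood near ES (-1.41, 3.38 and 0.44), and no clone overlapped with either fibroblast sample. Col1a2 fell by 5.23 ± 0.65 (limma adjusted p = 0.0235), and Col5a1 fell by 5.63 ± 0.44 and kept its call with the pair averaged (0.0298). Of 20 collagens 14 fell, none rose and 6 did not pass, with a median of -4.15, and 2 fell with the pair averaged. The basement-membrane collagen Col4a1 did not pass and was split, with 1.82, -0.98, -1.96 and -1.98 against 2.8 in MEF.

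Enzymes and partners of collagen were lower as well. Lox, the lysyl oxidase that crosslinks collagen and elastin, read -3.29, -0.95, -2.63 and -2.34 against 4.42 in MEF and 5.63 in unselected MEF, and fell by 6.72 ± 0.98 (limma adjusted p = 0.0311). P4ha2, a prolyl hydroxylase, fell by 2.8 ± 0.24 (limma adjusted p = 0.0113), and 10 of 20 collagen processing enzymes fell in all, with a median of -1.53. Among elastic fibre genes 9 of 17 fell, with a median of -2.56. Fbn1, fibrillin-1 of the microfibrils, read -1.72, -1.88, -0.93 and -1.11 against 2.91, and Mfap4 was at the floor in all clones against 0.76 in MEF and 4.33 in unselected MEF. The small proteoglycans Lum and Aspn, which space collagen fibrils, were at the floor in all clones and in ES, at 0.78 and 0 in MEF and at 3.81 and 3.3 in unselected MEF. They were at least 47.2- and 27.6-fold lower than MEF (limma adjusted p = 0.00046 for each, with no spread at the floor), and 5 of 9 proteoglycans fell, with a median of -2.74. Dcn, decorin, did not pass, with -0.78, 0.66, 1.27 and 1.38 against 2.61 (limma adjusted p = 0.257).

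Matricellular proteins, secreted modulators of the contact between cell and matrix, gave 12 of 19 lower with a median of -3.13. Thbs2, thrombospondin 2, read -2.66, -2.73, -3.35 and -3.83 against 2.96 in MEF and 3.75 in unselected MEF, and fell by 6.1 ± 0.55 (limma adjusted p = 0.0126). Ccn4, a secreted target of Wnt signals, read -0.97, -0.62, 0.26 and -0.62 against 4.02 and 3.59, and fell by 4.51 ± 0.53 (limma adjusted p = 0.0208). The clones did not overlap with the fibroblasts for either gene. Ccn5, of the same family as connective tissue growth factor, kept its call with the pair averaged (limma adjusted p = 0.0248 and 0.032), whereas Ccn2, connective tissue growth factor itself, read 4.08 and 3.04 in the 4- and 10-factor clones and 1.53 and 1.11 in the 3-factor pair against 5.57, and did not pass. Of 22 integrins and laminins 5 fell and 2 rose (9.32% and 4.73% of all probes), the 2 being Itgb4 and Lama5. Itga8, the integrin partner of fibronectin and nephronectin, was at the floor in all clones and at -0.62 in MEF. The matrix proteases and inhibitors gave 11 of 26 lower with a median of -2.32. Ctsk, the collagen-degrading cathepsin K, was at least 22.5-fold lower (limma adjusted p = 0.00046, at the floor in all clones). Mmp14, the membrane protease that activates gelatinase, read 2.8, 2.64, 1.43 and 0.79 against 5.16 and did not pass.

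**Figure D3:**
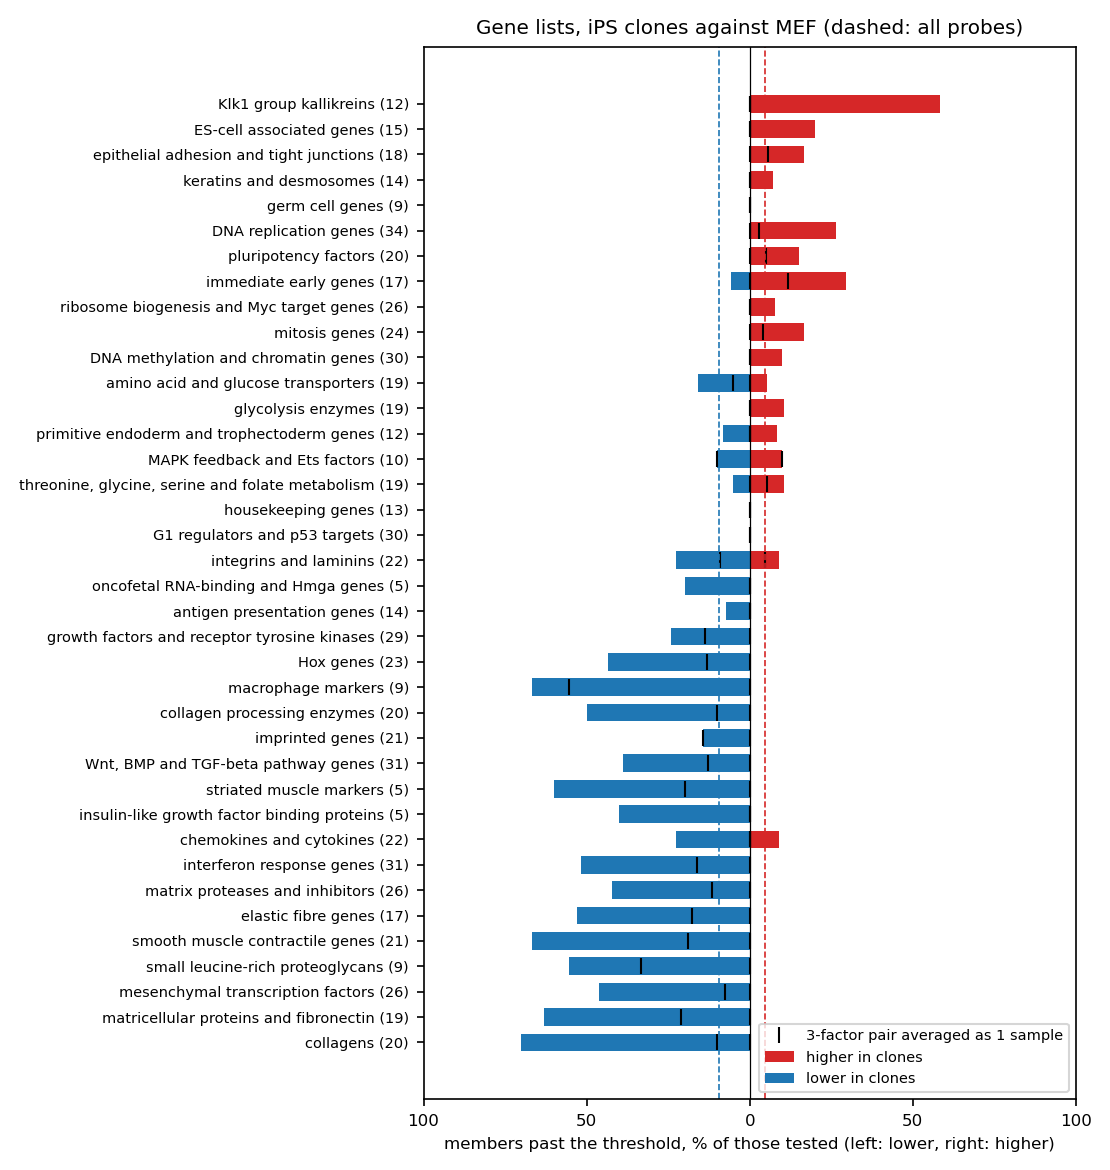
Share of the tested members of each gene list that passed in the clones against MEF (limma, adjusted p under 0.05), higher to the right in red and lower to the left in blue, with the number of members tested in brackets; dashed lines mark the shares over all probes (4.73% and 9.32%), and black ticks give the share with the 3-factor pair averaged into 1 sample. Collagens, smooth muscle contractile genes, macrophage markers and matricellular proteins lead on the low side and the Klk1 group on the high side. The ticks lie far inside the bars for most lists. Exceptions include macrophage markers (6 of 9 lower, 5 with the pair averaged) and imprinted genes (3 of 21 lower both ways).

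Contractile genes of smooth muscle type, which cultured fibroblasts express in their stress fibres, fell in 14 of 21 cases, with a median of -2.61, and in 4 with the pair averaged. Acta2, smooth muscle actin, read 1.98, 2.03, 1.62 and 1.8 in the clones, 4.01 in MEF, 3.93 in unselected MEF and 1.01 in ES. The clones lay together between the fibroblasts and ES, and the gene fell by 2.15 ± 0.2 (limma adjusted p = 0.013, and 0.0602 with the pair averaged). Cnn2, a calponin that stabilises actin bundles, read 0.09, 1.68, 0.89 and 0.64 against 4.46 and 4.3, and Actn1, the crosslinker alpha-actinin 1, read -2.97, -2.13, -3.27 and -3.23 against 0.55 and -0.55. The 10-factor clone was the highest of the clones for 14 of the 21 genes, against 2877 of 10561 named genes. Lmod1, leiomodin, was at the floor in all clones and at -0.94 in MEF. Actc1 and Acta1, the actins of heart and skeletal muscle, read -2.21, -2.09, -2.53 and -2.4 and -4.04, -3.53, floor and floor, against 3.76 and 1.9 in MEF. Both fell, and Actc1 kept its call with the pair averaged (limma adjusted p = 0.00135 and 0.0242).

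Many contractile genes are driven by serum response factor, which binds the CArG box. This motif was present in the same 300-base window in 4 of 16 contractile genes with a promoter in the table (25.0%), in 2 of the 11 that fell, and in 144 of 8395 tested genes (1.72%). The 2 that fell are shown with the 1 box of each in capitals (RefSeq, GRCm38.p6, 5′ to 3′ on the strand of the gene).
Myl9 (chr2:156775214-156775513, plus strand): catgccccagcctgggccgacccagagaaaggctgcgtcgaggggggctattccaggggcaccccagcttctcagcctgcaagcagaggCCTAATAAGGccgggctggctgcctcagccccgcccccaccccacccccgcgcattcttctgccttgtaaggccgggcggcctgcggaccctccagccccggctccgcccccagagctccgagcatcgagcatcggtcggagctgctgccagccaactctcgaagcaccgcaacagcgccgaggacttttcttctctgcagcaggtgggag
Cnn2 (chr10:79988350-79988649, plus strand): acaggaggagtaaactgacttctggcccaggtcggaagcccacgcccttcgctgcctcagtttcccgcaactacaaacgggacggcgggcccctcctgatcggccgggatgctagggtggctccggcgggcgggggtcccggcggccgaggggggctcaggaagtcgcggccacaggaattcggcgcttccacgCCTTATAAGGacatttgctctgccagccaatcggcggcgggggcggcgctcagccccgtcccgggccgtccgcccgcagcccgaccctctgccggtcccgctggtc
Myl9, the regulatory myosin light chain, read -2.97, -0.7, -1.78 and -2.18 in the clones against 6.48 in MEF and 6.64 in unselected MEF. All clones lay below both fibroblast samples, and the gene fell by 8.38 ± 0.94 (limma adjusted p = 0.0191, and 0.0827 with the pair averaged).

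Transcription factors of mesenchyme fell in 12 of 26 cases, with a median of -2.9, and in 2 with the pair averaged. Prrx2, a homeobox factor of limb and face mesenchyme, read -0.34, 0.69, 0.1 and -0.07 against 4.2 in MEF and 4.75 in unselected MEF, and fell by 4.11 ± 0.44 (limma adjusted p = 0.0173). Twist2, a helix-loop-helix factor of dermal fibroblasts, read -3.88, -2.78, -3.53 and -3.8 against 0.7 and -1.17. Foxc1 and Foxc2, forkhead factors of mesenchyme and somites, also fell. Foxc1 fell by 3.82 ± 0.44 (limma adjusted p = 0.0205), and Foxc2 fell by 3.71 ± 0.41 (0.0181). Snai1, the repressor of E-cadherin that drives the epithelial-to-mesenchymal change, read -2.17, -1.49, -2.32 and -3.08 against 1.41 in MEF and 0.66 in unselected MEF. It fell by 3.67 ± 0.65 (limma adjusted p = 0.0438, and 0.102 with the pair averaged), and ES read -1.52. Its relative Snai2 read -1.62, -1.24, 0.58 and -0.21 against 2.91 and did not pass. Meox1, a homeobox factor of somites, was at the floor in all clones (at least 9.81-fold lower, limma adjusted p = 0.000668), and at 1.25 in unselected MEF.

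Hox genes, which record the body position that a fibroblast came from, fell in 10 of 23 cases, with a median of -1.14. The count was 2 with the normexp background, 3 with the pair averaged and 5 of 17 with probes at the floor left out. Hoxa2 read -3.82, -3.9, -4.13 and -3.75 against -2.19 in MEF and -3.23 in unselected MEF, and fell by 1.71 ± 0.18 (limma adjusted p = 0.0165, and 0.0416 with the pair averaged). Hoxa5 read 0.23, 0.04, 0.64 and 0.35 against 1.74 in MEF but 0.15 in unselected MEF, so its clones lay level with the second fibroblast sample. Hoxc6 was split, at -2.63 and -1.01 in the 4- and 10-factor clones and -4.78 and -4.47 in the 3-factor pair, against 0.61. Against unselected MEF 3 of the Hox genes fell (15.2% of probes fell there).

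Some secreted signals and receptors fell. Over all probes 9.32% fell, and 2.28% with the pair averaged. Of 31 genes of the Wnt, BMP and TGF-beta pathways 12 fell and 19 did not pass, with a median of -1.66, and of 29 growth factors and receptor tyrosine kinases 7 fell and 22 did not pass, with a median of -1.1. With the pair averaged 4 fell in each list. Inhba, the activin A subunit, read -1.69, -0.35, -1.56 and -1.73 against 3.51 in MEF and 1.02 in unselected MEF, and fell by 4.84 ± 0.66 (limma adjusted p = 0.0276). Bmp4, a growth factor of mesenchyme and early embryo, read -3.61, -4.18, -4.29 and -4.57 against -0.3 and fell by 3.86 ± 0.41 (limma adjusted p = 0.0171). Dkk2, a Wnt antagonist, was at the floor in all clones and in ES (at least 17.6-fold lower, limma adjusted p = 0.00046). Pdgfrb, the receptor through which platelet-derived growth factor acts on fibroblasts, read -3.62, -3.05, -2.79 and -4.43 against 2.92 and 1.34. It fell by 6.39 ± 0.72 (limma adjusted p = 0.0195) and kept its call with the pair averaged (0.032). Kit, the stem cell factor receptor, was dark in both fibroblast samples and read -0.07, -1.97, -2.39 and -1.97 in the clones, but did not pass (limma adjusted p = 0.129). Igfbp7, a binding protein of insulin-like growth factors, read 0.61, 1.56, 0.79 and 0.55 against 6.14 and fell by 5.26 ± 0.47 (limma adjusted p = 0.0121). Thy1, the surface glycoprotein used to sort fibroblasts, read -3.64, -2.82, -2.91 and -3.03 against 0.19 and 0.34 and fell by 3.29 ± 0.38 (limma adjusted p = 0.0201). Hmga2, a chromatin protein of embryonic mesenchyme, fell by 2.68 ± 0.29 (limma adjusted p = 0.0184) but stood at -3.46 in unselected MEF, below the -2.28, -1.61, -2.13 and -1.9 of the clones.

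Imprinted genes, expressed from 1 parental copy, gave 3 of 21 lower (9.32% of all probes fell) with a median of -1.56. The median was -0.57 with the normexp background and -0.56 with a floor 2 times as high. Against unselected MEF 1 fell (15.2% of probes fell there), with a median of -0.18. Igf2r, the receptor that clears Igf2, read 1.92, 1.81, 2.29 and 1.65 against 3.64 in MEF and 2.1 in unselected MEF, and fell by 1.72 ± 0.28 (limma adjusted p = 0.0378, and 0.0458 with the pair averaged). Igf2 and H19 share an imprinted domain and behaved alike. Igf2, a fetal growth factor, read -0.49 and 0.32 in the 4- and 10-factor clones and was at the floor in both 3-factor clones, against 6.7 in MEF, 5.93 in unselected MEF and 0.88 in ES. H19, a noncoding RNA, read -0.43 and -0.31 in the 4- and 10-factor clones, lay at the floor in both 3-factor clones, and stood at 4.51 in MEF. All clones were far below both fibroblast samples, but neither gene passed (limma adjusted p = 0.111 and 0.152).

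Interferon response genes, the antiviral set that type I interferon switches on, were lower in the clones. Of 31 tested 16 fell, none rose and 15 did not pass, with a median of -2.27, and 5 fell with the pair averaged. The set is switched on through the ISRE, the binding element of the interferon-activated factor. Its letters, GAAA followed after any 2 bases by GAAA again, on either strand, were found in the 300-base promoters of 14 of 23 members with a promoter in the table (60.9%), of 6 of the 12 that fell, and of 315 of 8395 tested genes (3.75%). The promoters of 3 genes that fell are shown with the matches in capitals, overlapping in the first (RefSeq, GRCm38.p6, 5′ to 3′ on the strand of the gene).
Isg15 (chr4:156200769-156201068, minus strand): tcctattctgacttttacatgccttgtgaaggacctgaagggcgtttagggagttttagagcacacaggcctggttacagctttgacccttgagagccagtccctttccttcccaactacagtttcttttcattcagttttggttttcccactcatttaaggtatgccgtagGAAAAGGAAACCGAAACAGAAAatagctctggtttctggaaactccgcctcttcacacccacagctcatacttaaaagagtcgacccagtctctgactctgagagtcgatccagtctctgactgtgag
Ifit1 (chr19:34640639-34640938, plus strand): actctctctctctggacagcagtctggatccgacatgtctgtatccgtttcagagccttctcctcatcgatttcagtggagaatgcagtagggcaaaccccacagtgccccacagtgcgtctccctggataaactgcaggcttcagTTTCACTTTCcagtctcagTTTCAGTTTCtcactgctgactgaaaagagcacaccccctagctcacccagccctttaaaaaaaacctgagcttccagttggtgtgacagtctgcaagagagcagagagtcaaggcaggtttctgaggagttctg
Ifit3 (chr19:34583279-34583578, plus strand): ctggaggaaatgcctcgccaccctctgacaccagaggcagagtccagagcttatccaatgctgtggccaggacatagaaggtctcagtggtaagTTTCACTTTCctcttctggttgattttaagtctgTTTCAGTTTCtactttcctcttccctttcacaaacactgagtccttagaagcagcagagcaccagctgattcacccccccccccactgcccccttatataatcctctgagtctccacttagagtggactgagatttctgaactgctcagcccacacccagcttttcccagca
Isg15, a ubiquitin-like modifier, read -2.54, -0.86, -1.57 and -1.42 in the clones, 3.9 in MEF, 0.76 in unselected MEF and -1.16 in ES. Ifit1 and Ifit3 bind viral RNA or its sensors. Ifit1 read -4.35, -3.66, -4.66 and -4.23 against 0.26 in MEF, -2.64 in unselected MEF and -3.94 in ES, and Ifit3 read -4.78, -2.85, -3.54 and -3.12 against 1.56, -1.44 and -2.1. The MEF array was the highest for each, with unselected MEF in between.

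The same order, with MEF highest and unselected MEF next, held for Ifi44 and Irf9, members without a printed promoter. Ifi44 was at the floor in all clones, at -4.68 in ES, at -3.11 in unselected MEF and at -0.05 in MEF, and it was at least 26.5-fold lower in the clones (limma adjusted p = 0.00046, with no spread). Irf9, the DNA-binding part of the interferon-activated factor, read -1.92, -1.92, -1.99 and -2.18 against 0.24 in MEF and -0.94 in unselected MEF, and kept its call with the pair averaged (limma adjusted p = 0.00522 and 0.0355). Against unselected MEF 9 of the interferon response genes fell (15.2% of probes fell there), with a median of -1.13. Ifitm1, which is also an early embryonic gene, went the other way in part, at 4.05 and 4.18 in the 4- and 10-factor clones, -0.37 and -0.89 in the 3-factor clones, -1.61 in MEF and 4.55 in ES, and did not pass. Of 14 antigen presentation genes only B2m, the light chain of class I molecules, fell, and it fell by 1.44 ± 0.25 (limma adjusted p = 0.0426). Among 22 chemokines and cytokines 5 fell and 2 rose (9.32% and 4.73% of all probes), with none after averaging the pair. Cxcl12, a chemokine made by stromal fibroblasts, read -3.06, -1.8, -1.72 and -2.73 against 3.78 and 1.91 and fell by 6.11 ± 0.67 (limma adjusted p = 0.018), and Ccl5, itself induced by interferon, fell by 3.9 ± 0.52 (limma adjusted p = 0.0268).

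**Figure D4:**
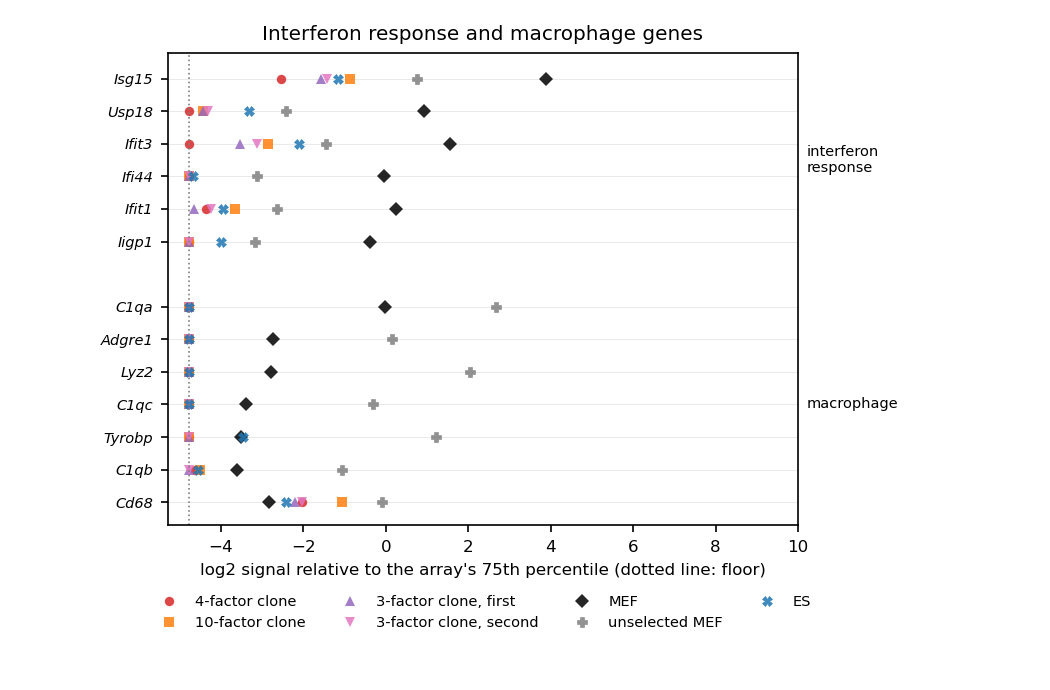
Log2 signal of interferon response and macrophage genes on each array relative to the 75th percentile (horizontal axis), with symbols for each clone, MEF, unselected MEF and ES and a dotted line at the floor. For the interferon genes MEF is the rightmost symbol, whereas for the macrophage genes unselected MEF is. All clones are at the floor for Ifi44, Iigp1, C1qa, Adgre1, Lyz2, C1qc and Tyrobp.

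Markers of other cell types also differed between clones and MEF, and their part in the results was not tested. Of 9 tested macrophage markers 6 were lower in the clones than in MEF, where C1qa, a complement chain made by macrophages, read -0.01 and Lyz2, lysozyme, -2.78. With the normexp background 1 of the 9 was lower, and with probes at the floor left out 0 of 3. C1qa and Lyz2 were at the floor in every clone, and of 11 markers 7 to 8 were at the floor in the clones and 2 in MEF. The summed signal of 11 macrophage markers was 59.4% to 99.6% of the 75th percentile in the clones, 209% in MEF, 1760% in unselected MEF and 59.2% in ES. The order of the fibroblast samples was therefore the reverse of that for the interferon genes. Of 8 striated muscle markers the summed signal was 55.3% to 102% in the clones, 1900% in MEF and 1440% in unselected MEF, with 3 of 5 tested lower. Endothelial markers summed to 45.1% to 146% in the clones and 185% in MEF. Emcn, endomucin of vessel walls, was at least 4.64-fold lower, and Tek, the angiopoietin receptor, read -0.33, -1.91, -0.67 and -0.8 in the clones, was dark in MEF and rose at least 14.5-fold (limma adjusted p = 0.0435, and 0.128 with the pair averaged). Neural markers summed to 90.2% to 231% in the clones and 700% in MEF, where Nes, nestin, read 2.26 against -0.06, 0.85, -1.06 and -0.6. Red cell markers summed to 16.3% to 18.4% in the clones and 14.6% in MEF.

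The genes that varied most among the clones mostly set the 4- and 10-factor clones, or the 4-factor clone alone, apart from the 3-factor pair. Dppa5a, an RNA-binding protein of ES and germ cells, read 2.84, 5.6, -3.55 and -3.01, against 8.25 in ES and -3.65 in MEF, so that the 3-factor clones were level with MEF. Trh, which encodes thyrotropin-releasing hormone, read 4.59, -2.08, -4.08 and -4.27 against 2.6 in ES. Saa3, an acute-phase protein, read 3.94 and 1.27 in the 4- and 10-factor clones and was at the floor in the others. Myh2 and Myh8, myosin heavy chains of skeletal muscle, read 3.26 and 3.23 in the 4-factor clone and lay between -4.78 and -3.17 in the other clones, while unselected MEF, which received the same number of factors, stood at 2.03 and 1.64. Srgn, a proteoglycan of blood cell granules, read 2.72 and -0.78 and was at the floor in the 3-factor clones, and Fcgr2b, an antibody receptor of immune cells, read 2.98, -2.45, -3.85 and -3.98. Foxd1 read 3.73, 0.65, -3.52 and -4.26 around the 0.21 of MEF, and Gpm6b, a neuronal membrane protein, read 2.81 in the 4-factor clone and -3.71 to -4.09 in the others. Gcnt3, a mucin-type glycosyltransferase, showed the opposite order, with -4.04, 1.43, 3.19 and 3.16, and was dark in MEF and ES. Cldn7, a claudin of tight junctions, was bright in the 10-factor clone alone (2.08). None of these 12 most variable genes, to which St8sia5 belongs, passed against MEF.

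The 3-factor pair differed in a pair of X-linked genes. Xist, a noncoding RNA that silences an X chromosome in female cells, read 1.39 in the second 3-factor clone, 0.51 in MEF and -0.35 in unselected MEF, and was at the floor in the other clones and in ES. Rhox5, an X-linked homeobox gene, read 2.45, 4.08, 3.32 and 5.26 in the clones against 1.42 in MEF and 4.28 in ES.

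**Figure D5:**
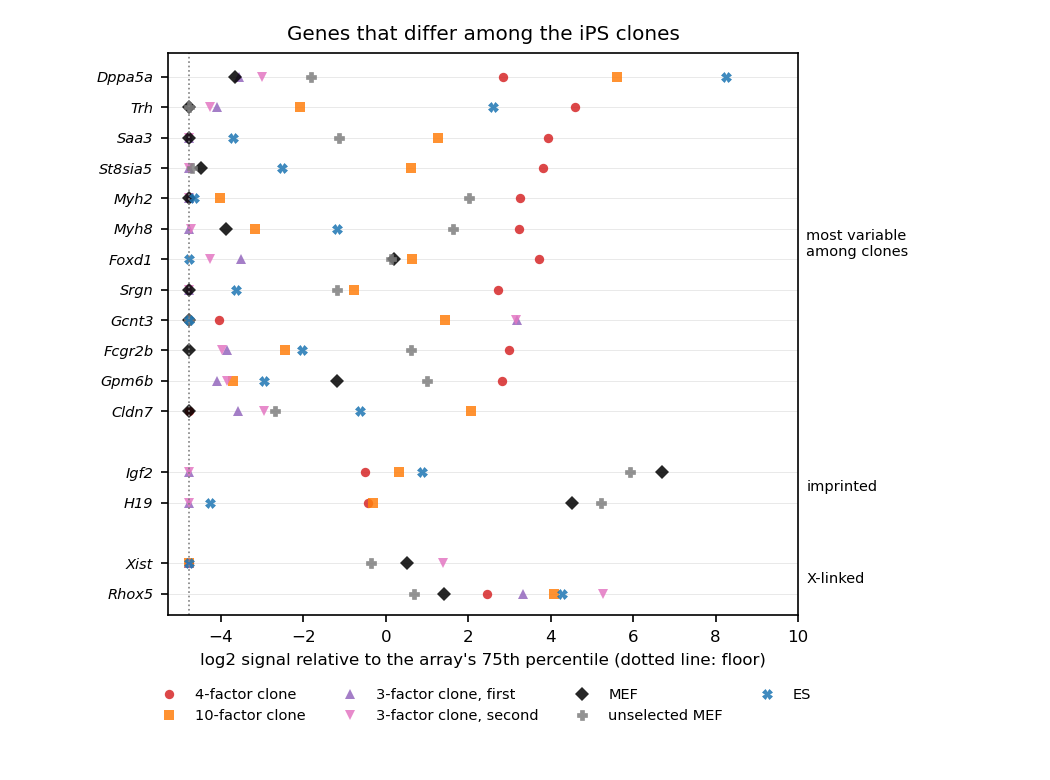
Log2 signal relative to the 75th percentile (horizontal axis) of the 12 named genes with the widest range over the clones, of the imprinted genes Igf2 and H19 and of the X-linked genes Xist and Rhox5, with symbols for each clone, MEF, unselected MEF and ES and a dotted line at the floor. The 3-factor clones lie together in most rows, apart from the 4- and 10-factor clones, and part from each other at Xist and Rhox5.

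Of 9539 named genes above background in MEF, 1853 lay within 0.5 of MEF on the log2 scale in every clone, and 364 were not above background in any clone. Conversely 382 named genes were above background in all clones and not in MEF. None of 13 housekeeping genes passed, and their median difference was 0.01. The genes chosen as kept and bright in MEF were ribosomal protein genes such as Rplp0, which read 8.23, 8.03, 7.85 and 8.19 against 8.33, and their probes were saturated, so that no fold is given.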

How the data were processed

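Total RNA of each sample was hybridised to 1 single-colour Agilent array. The deposited scanner files hold spot intensity that, per the file headers, was processed with Agilent Feature Extraction 8.5.1.1, which subtracts background. The processed intensity of 20868 gene probes was divided by the 75th percentile of its array, set to a floor at 3.632% of it and taken to log2, with control spots and outlier spots left out. The deposited value table lay within 0.5% of these intensity values for probes spotted once. It is linear and not centred, with column medians from 9.52 to 20.45, and it served as an alternative.

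Names came from RefSeq for 16442 probes of 15680 genes, and 4426 probes are unnamed here. A gene is given by its brightest probe. Probes well above background (2.6 times its SD) on 50% or more of the arrays in either group compared were tested with limma 3.58.1 in R 4.3.3 (lmFit, eBayes, Benjamini-Hochberg adjusted p under 0.05), as the mean of 4 clones minus 1 MEF array. A fold written as "at least" sets the brighter side against the floor, or the dim probe's own signal where that is higher. The procedure was also run on simulated data with independent clones. These had neither the near-identical 3-factor pair nor probes without spread at the floor, so they do not test calls that rest on those. Alternatives were other scalings, background corrections, filters, floors, spreads, scan day as a block, a further reference array and leaving out each clone.

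The members and the 44 gene lists were chosen with earlier results of these data known. Named genes are the 15 with the largest differences in each direction, up to 6 passing and 3 other members of each list, fixed ES-cell and fibroblast genes, the 12 most variable genes, the 10 brightest kept genes, the 10 brightest gained genes and the Klk1 group. Genes named outside this rule were chosen after their values were seen, among them Irf9, Esrrb, Nr5a2, Zfp42, Foxd3, Dppa3 and Ooep. Some members that meet the rule are not reported here. The number of arrays limits the precision.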

Additional observations from a re-analysis of the deposited data

Results flagged for a closer look

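In 10 of 142 groups of 4 clones 1 clone lay far from the other clones, relative to the range of the group. The limit is one that about 1 in 20 groups of 4 independent, normally distributed values would pass. That rate does not hold for these groups. The 3-factor clones are nearly alike, some values lie at the floor, and the most variable genes were picked for their range. No explanation was tested. The 10-factor clone stood apart 5 times. It read 0.47 for Dppa3, -4.5 for Aldh1l1, -0.35 for Inhba and -3.72 for Ccl5, each above the other clones, and 464 of its probes lay at least 5-fold below MEF, fewer than in the other clones. Xist read 1.39 in the second 3-factor clone and was at the floor in the others, and Ddx18 read 0.02 in the same clone, above the others. Cdt1 read 3.85 in the first 3-factor clone, below the others. Myh2 at 3.26 and Gpm6b at 2.81 stood apart in the 4-factor clone.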

How the results depend on the processing

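No paired analysis was possible because there is 1 MEF array and the clone numbers are only names. Of 617 higher and 1217 lower probes, scaling to the median gave 271 higher, normexp background 386 and 775, no filter 294 higher, leaving out probes at the floor 364 and 651, a test against a fold of 2 gave 52 and 244, a spread pooled over more arrays 51 and 153, and the averaged 3-factor pair 51 and 297. Leaving out 1 clone gave 33 to 570 higher and 285 to 1326 lower. Within the first scan day limma called 0 in either direction. Against unselected MEF, with alternatives chosen after seeing the data, leaving out 1 clone gave 622 to 1410 higher and 895 to 1967 lower, and the averaged pair 708 and 964. Of 512 probes at least 5-fold apart in all clones 239 were above background on both arrays, and a fold of 2 gave 2002. The cause of these shifts was not tested beyond the smaller number of samples or probes.

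Of 96 called genes named in the text none reversed under any of 19 alternatives that gave a value (with probes at the floor left out only 64 had one), 96 were called with the deposited value table, 62 with scan day as a block, 33 with the averaged pair and 0 within the first scan day. Differences that had not passed changed sign for Klf4 (0.07 with the scan block and within the first scan day, 0.18 with both MEF references), Foxd3 (-0.09 with normexp), Myh2 (-1.21 with both references), Myh8 (-0.36 to 2.31 over the fits without 1 clone, -1.25 with both references), Foxd1 (-2.59 to 0.07 over the fits without 1 clone, 1.98 with the scan block and within the first scan day) and Gpm6b (0.74 with the scan block and within the first scan day). Signals at the floor have no order, so depth below it is not resolved. With probes at the floor left out, no value remained for the median of the Klk1 group.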

Other observations

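Chromosome medians of the difference between 1 clone and the other clones were -0.26 for chromosome 14 in the 10-factor clone and 0.19 for chromosome 15 in the 4-factor clone, on the log2 scale, with no test.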
